A study of Saccharomyces cerevisiae with 16 samples.

Results

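The mitochondrial genome of Saccharomyces cerevisiae encodes 8 proteins, and the genes for these proteins are described here across 16 single-colour Agilent expression arrays. The genes are COB, COX1, COX2, COX3, ATP6, ATP8, OLI1 and VAR1, listed on the array under the systematic names Q0105, Q0045, Q0250, Q0275, Q0085, Q0080, Q0130 and Q0140. The rule that defines them uses systematic names and no measured value, though the group was taken up with earlier results of these data known. They are 8 of the 6227 genes on the array. Each has 1 probe, printed as 2 spots, and all 8 entered the tests, which covered 6165 genes.

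Mitochondrial DNA is transcribed by its own polymerase, Rpo41, with the factor Mtf1, into long transcripts that are then cut and spliced, and the messages lack the poly(A) tails of nuclear messages. The proteins are made on mitochondrial ribosomes and join nuclear-encoded subunits in the respiratory chain and the ATP synthase. COB is cytochrome b, the core of complex III, which passes electrons to cytochrome c. COX1, COX2 and COX3 form the core of complex IV, cytochrome c oxidase. ATP6, ATP8 and OLI1 build the proton channel of the ATP synthase, with OLI1 as the subunit of its rotating ring. VAR1 is a protein of the small mitochondrial ribosomal subunit, the machinery that translates the other members.

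The study expressed forms of HOG1, the stress-activated MAP kinase of yeast, from the MET3 promoter, which methionine holds off and methionine removal turns on. The lines were H, 170, WT (the wild-type HOG1 gene), each in cells with the chromosomal HOG1 deleted, and JBY13 cells with an empty plasmid, called vec here; whether JBY13 also lacks HOG1 is not given in the sources used here. The mutant genes of the study are HOG1D170A and HOG1D170A+F318L, but the labels contradict each other on which of the lines H and 170 carries which, so no mutation is assigned to either. Each line was measured at 0, 45, 90 and 150 min after methionine removal, with 1 array per line and time, so the p-values below measure how steady a difference was over lines or times and not how it varied between cultures. At 0 min, where a line has a single array, they assume that this array varies like the later ones.

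Lines H and WT lay on 1 slide and lines 170 and vec on the other, 8 arrays each. Differences of H or WT from vec, of 170 from WT and of H from 170 therefore cross slides, and line and slide cannot be told apart in them, whereas H against WT and 170 against vec lie within a slide. Time goes with the place of the array on its slide, and the effects of time and place cannot be told apart. Between 93.4% and 98.8% of the spots of an array were well above background, and each member was well above background and not saturated on all 16 arrays. The targeted gene followed the labels of expression: at 45 min HOG1 stood at 5.55 in H, 6.12 in 170, 5.64 in WT and -2.32 in vec. Levels are log2 of the background-subtracted signal relative to the 75th percentile of that array, so a lower level means less signal relative to other genes. Fewer mitochondrial genomes per cell and less RNA from each genome cannot be told apart in such values. The labelling primer is not given in the sources used here, and where in its gene each probe lies is not used here.

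All 8 genes fell after methionine removal, by 0.32 to 0.69 on the log2 scale averaged over 45, 90 and 150 min and the 4 lines. The median of the 8 changes was -0.61, against -0.11 over all genes tested. In the limma fit across all genes with line as a term, every member passed at an adjusted p (Benjamini-Hochberg) under 0.05, where 44.2% of genes were lower by the same criterion. The SE of this fit counts the later arrays of a line as separate observations. It is not the spread of the changes of the 4 lines. The 8 were also each lower at 45 min (44.5% of genes lower), at 90 min (41.1% of genes lower) and at 150 min (40.0% of genes lower), with member medians of -0.47, -0.65 and -0.68. Each gene's mean later level lay below its 0 min level in 4 of 4 lines.

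**Figure D1:**
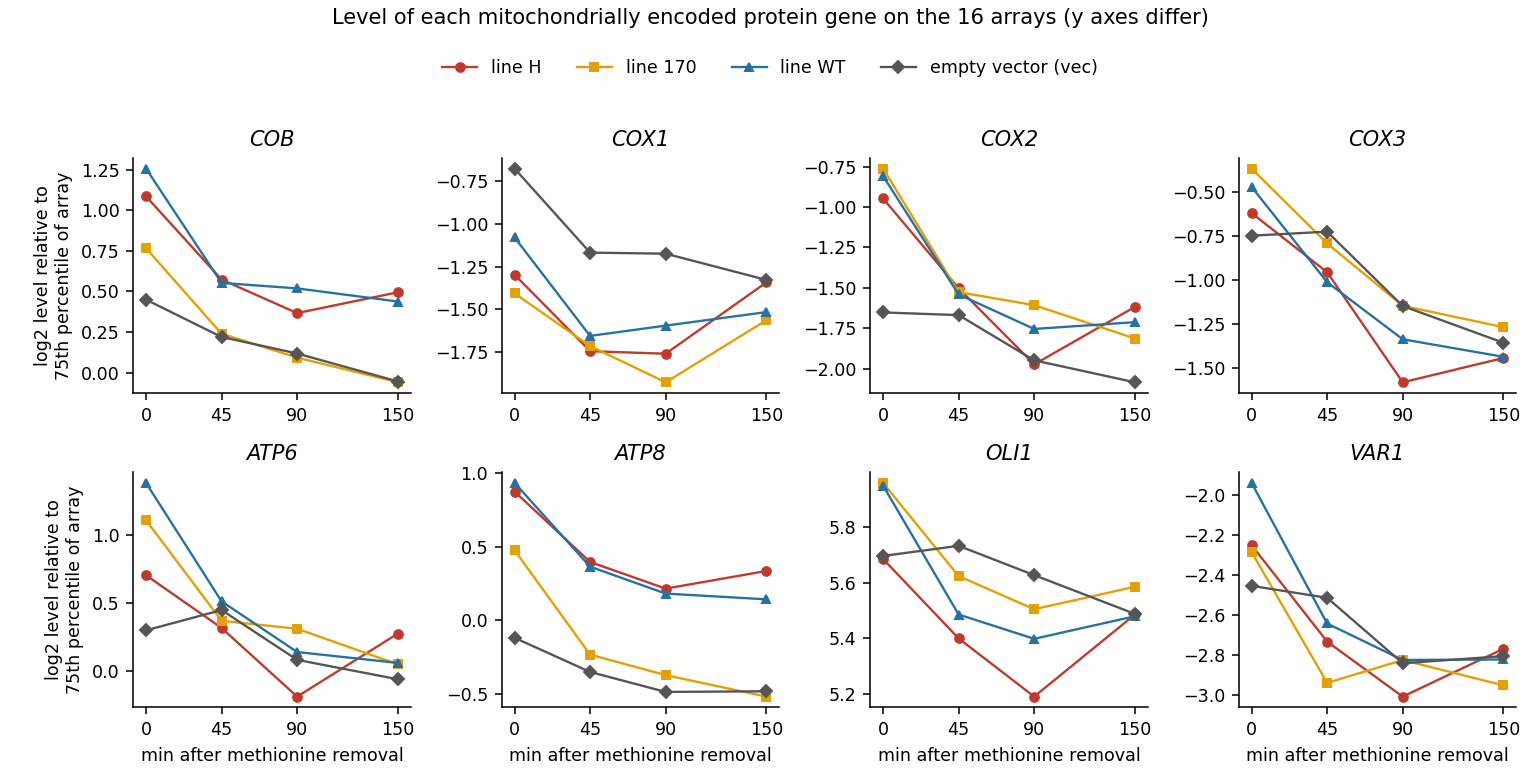
Level of each of the 8 genes (y axis, log2 relative to the 75th percentile of the array, with a separate scale for each gene) against minutes after methionine removal (x axis), for lines H, 170, WT and vec, 1 point per array. The 150 min point lies below the 0 min point in every line and panel, though vec is slightly higher at 45 min than at 0 min for COX3, ATP6 and OLI1. For COB and ATP8 the H and WT lines run above the 170 and vec lines at each time, 0 min included.

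COB, cytochrome b, stood at 1.09, 0.57, 0.37 and 0.50 at 0, 45, 90 and 150 min in H, and at 0.77, 0.24, 0.09 and -0.06 in 170. It stood at 1.26, 0.55, 0.52 and 0.44 in WT, and at 0.45, 0.22, 0.12 and -0.06 in vec. The 0 min array was the highest of each line, but several later arrays of H and WT lay above vec at 0 min. Over the lines COB fell by 0.60 ± 0.07 (SE, 4 lines), with an adjusted p of 6.4e-06 in limma.

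COX1, the subunit that binds the haem and copper of the oxygen-reducing site, stood at -1.30, -1.74, -1.76 and -1.34 in H, and at -1.41, -1.71, -1.93 and -1.56 in 170. Its levels were -1.08, -1.65, -1.59 and -1.52 in WT, and -0.68, -1.17, -1.17 and -1.33 in vec. In H the 150 min level lay close to that at 0 min, while vec was lowest at 150 min, and the later vec arrays at 45 and 90 min lay above H and 170 at 0 min. Its fall was 0.43 ± 0.08 on the log2 scale (SE, 4 lines, limma adjusted p = 0.00044).

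COX2, which takes electrons from cytochrome c through its copper site, stood at -0.95, -1.50, -1.97 and -1.62 in H, and at -0.76, -1.53, -1.61 and -1.81 in 170. The levels in WT were -0.81, -1.54, -1.75 and -1.71, and those in vec were -1.65, -1.67, -1.95 and -2.08. The 0 min level of vec lay well below those of the other lines, overlapping their later levels, and vec had hardly moved at 45 min. The fall over the lines was 0.69 ± 0.10 (SE, 4 lines, limma adjusted p = 5.6e-05).

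COX3, the third core subunit of the oxidase, stood at -0.62, -0.96, -1.58 and -1.44 in H, and at -0.37, -0.79, -1.15 and -1.27 in 170. It stood at -0.47, -1.01, -1.34 and -1.44 in WT, and at -0.75, -0.73, -1.15 and -1.36 in vec. Of the later arrays only vec at 45 min lay above the lowest 0 min array, which was that of vec. Its fall was 0.63 ± 0.08 (SE, 4 lines, limma adjusted p = 1e-05).

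ATP6, the stator subunit of the proton channel, stood at 0.71, 0.32, -0.19 and 0.28 in H, and at 1.11, 0.37, 0.31 and 0.05 in 170. It stood at 1.38, 0.51, 0.14 and 0.06 in WT, and at 0.30, 0.45, 0.08 and -0.06 in vec. The fall was steepest in WT, with a change of -1.14 between 0 min and the later average, and smallest in vec, at -0.14. With that spread the estimate over lines was a fall of 0.68 ± 0.14 (SE, 4 lines, limma adjusted p = 6e-04), the widest error among the members, and the 0 min level of vec lay below all 45 min levels.

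ATP8, a small membrane subunit next to ATP6, stood at 0.88, 0.40, 0.22 and 0.34 in H, and at 0.48, -0.24, -0.37 and -0.52 in 170. It stood at 0.94, 0.36, 0.18 and 0.14 in WT, and at -0.12, -0.35, -0.49 and -0.48 in vec. H and WT ran together at each time, and 170 joined vec at the later times, so that the later levels of H and WT lay above vec at 0 min. ATP8 fell by 0.61 ± 0.08 over the lines (SE, 4 lines, limma adjusted p = 1.2e-05).

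OLI1, the ring subunit, stood at 5.69, 5.40, 5.19 and 5.49 in H, and at 5.96, 5.62, 5.51 and 5.59 in 170. Its levels were 5.95, 5.49, 5.40 and 5.48 in WT, and 5.70, 5.73, 5.63 and 5.49 in vec. The 45 min level of vec exceeded the 0 min levels of H and vec. OLI1 varied least of the 8 genes, with an SD of 0.20 over the 16 arrays, below that of most genes tested (percentile 7.6). Its fall of 0.32 ± 0.07 (SE of the fit to 16 arrays, limma adjusted p = 0.0016) was a 1.25-fold drop relative to the 75th percentile of the array. The unscaled signal was 341000 at 0 min in WT and 352600 to 383400 later, while that percentile rose from 5525.6 to at least 7903.9. The signal was 399700 and then 383600 to 413200 in H, and 306100 and then 289500 to 293700 in 170. In vec it fell from 360800 to between 272800 and 293900, where that percentile fell from 6962.2 to between 5134.4 and 6454.3. The unscaled signal of COX1 was also uneven, at 2616 and then 2636 to 3011 in WT. It was 3163 and then 2712 to 3437 in H, 1859 and then 1736 to 2077 in 170, and 4354 and then 2287 to 2636 in vec. For COB, COX2, ATP6 and VAR1 the unscaled signal of every later array lay below 0 min of its line. COX3 and ATP8 did the same except in WT at 45 min.

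VAR1, the ribosomal protein, stood at -2.25, -2.73, -3.01 and -2.77 in H, and at -2.28, -2.94, -2.82 and -2.95 in 170. It stood at -1.94, -2.64, -2.82 and -2.82 in WT, and at -2.45, -2.51, -2.84 and -2.81 in vec. All 12 later arrays lay below all 4 arrays at 0 min, which held for VAR1 alone among the members and for 22.1% of genes in that direction. The fall was 0.57 ± 0.09 (SE, 4 lines, limma adjusted p = 6.1e-05).

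The size of the fall varied by line. The median change of the 8 genes was -0.58 in H, -0.69 in 170, -0.77 in WT and -0.29 in vec, against medians over all genes between -0.13 and -0.07. Within vec, COX3, ATP6 and OLI1 were at 0.02, 0.15 and 0.04 above their own 0 min level at 45 min. On the slide of H and WT alone 8 of the 8 genes were lower for the later times together, where 42.6% of genes were. On the slide of 170 and vec alone 4 of the 8 were lower for the later times together, where 30.2% of genes were. On that slide 0 of the 8 passed at 45 min (26.4% of genes lower), 1 at 90 min (23.6% of genes lower) and 4 at 150 min (22.9% of genes lower). At 45 min the count was 5 without line 170, 5 without line WT and 5 when arrays were scaled to their median instead. That scaling placed the median of all genes at -0.01 for the later times and left 8 of the 8 lower there.

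**Figure D2:**
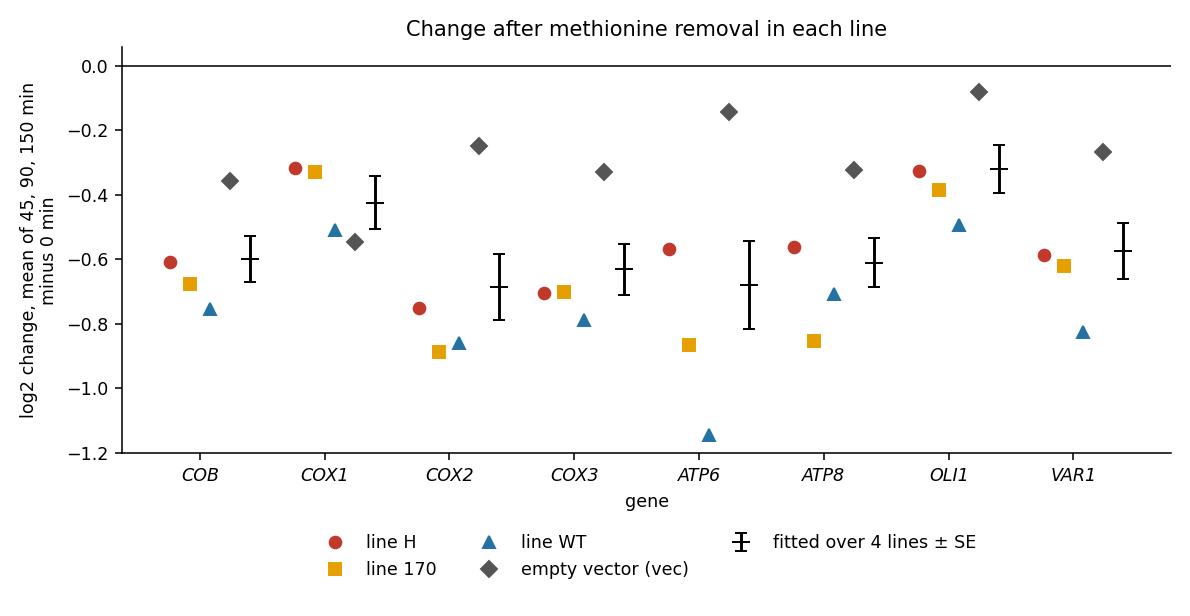
Change of each gene (y axis, log2, mean of 45, 90 and 150 min minus 0 min) in lines H, 170, WT and vec, 1 point per line. Black bars give the limma estimate over the 4 lines and the SE of that fit, which is not the spread of the points. All points lie below 0, and vec lies closest to 0 for every gene except COX1.

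The difference between lines in this fall was tested directly. Line 170 differed from vec for 1 of the 8, ATP8, by -0.53 ± 0.15 (SE, limma adjusted p = 0.033), where 7.58% of genes were lower by this criterion. This call was lost without the 90 min arrays and without the 150 min arrays. H differed from vec for 0 of the 8 in limma (1 at an unadjusted p under 0.05, 18.7% of genes called), and WT differed from vec for 0 of the 8 (7 at an unadjusted p under 0.05, 8.37% of genes called). The nearest in WT was ATP6, at -1.002 ± 0.26 (SE) with an adjusted p of 0.051. H differed from WT for 0 of the 8 (0 at an unadjusted p under 0.05) and for 0% of genes. H, 170 and WT are all set against the same vec arrays here and below.

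After methionine removal the lines were compared over 45, 90 and 150 min, and COB and ATP8 set H and WT apart from 170 and vec. The same order was present at 0 min, so the split need not have arisen after removal. At 0 min COB stood at 1.09 in H and 1.26 in WT, against 0.77 in 170 and 0.45 in vec. ATP8 stood at 0.88 in H and 0.94 in WT, against 0.48 in 170 and -0.12 in vec. ATP8 was higher by 0.76 ± 0.07 in H than in vec (SE, 3 times, limma adjusted p = 8.4e-05) and by 0.67 ± 0.07 in WT than in vec (limma adjusted p = 0.00069). COB was higher by 0.39 ± 0.08 in H than in vec (limma adjusted p = 0.0039) and by 0.41 ± 0.08 in WT than in vec (limma adjusted p = 0.0066). For both genes the 6 later arrays of H and WT all lay above the 6 later arrays of 170 and vec, which held for 3.21% of genes. OLI1 lay below, as did 2.17% of genes, but by a bare margin. Its highest level in H and WT was 5.486 and its lowest in 170 and vec was 5.488. Its unscaled signal on those arrays was higher in H and WT, at 352600 or more, than in 170 and vec, at 293900 or less. Because H and WT share a slide and 170 and vec share the other, the line and the slide cannot be told apart in this split.

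In H against vec, 2 of the 8 were higher (25.2% of genes) and 3 were lower (24.6% of genes). The lower ones were COX1 by -0.39 ± 0.12, COX3 by -0.25 ± 0.08 and OLI1 by -0.26 ± 0.09 (SE, limma adjusted p = 0.022, 0.036 and 0.037). COX2, ATP6 and VAR1 did not pass. These 5 calls became 2 without the 45 min arrays, 1 without the 90 min arrays and 3 without the 150 min arrays. The sign of OLI1 turned under quantile normalization, to 0.33.

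In WT against vec, COB and ATP8 were higher (16.9% of genes) and COX1 was lower by -0.37 ± 0.12 (SE, limma adjusted p = 0.046; 12.8% of genes lower). The median of the 8 differences was 0.02, against 0.03 over all genes. Without the 90 min arrays the count of calls was 1 in place of 3.

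In 170 against vec, which lie on the same slide, 1 of the 8 passed. COX1 was lower by -0.51 ± 0.12 (SE, limma adjusted p = 0.011; 16.4% of genes lower), with differences of -0.55, -0.75 and -0.24 at 45, 90 and 150 min. The 2 spots of the COX1 probe differed by 0.75 on the 170 array at 90 min, the widest gap of any member, where the median gap of members was 0.06. The call was lost without the 90 min arrays and in the fit of that slide alone. The authors' deposited values, which were also fitted on that slide alone, gave no call either. COB and ATP8 differed by -0.003 ± 0.08 and 0.07 ± 0.07 (SE), and the 95% intervals of the 7 genes that did not pass lay between -0.41 and 0.50.

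H and WT, also on 1 slide, differed for 0 of the 8 after removal in limma (0 at an unadjusted p under 0.05), where 6.23% of genes passed. The 95% intervals of the 8 differences lay between -0.40 and 0.25. They rest on the spread over the later times, with 1 array per line and time, and do not bound differences between repeated cultures. Line 170 was below WT for COB by -0.41 ± 0.08 and for ATP8 by -0.61 ± 0.07 (SE, limma adjusted p = 0.014 and 0.0032; 10.9% of genes lower). H was above 170 for the same genes, by 0.39 ± 0.08 for COB and 0.69 ± 0.07 for ATP8 (SE, limma adjusted p = 0.015 and 0.003; 9.75% of genes higher). In both of these cross-slide comparisons 0 members passed without the 90 min arrays and 0 without the 150 min arrays.

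**Figure D3:**
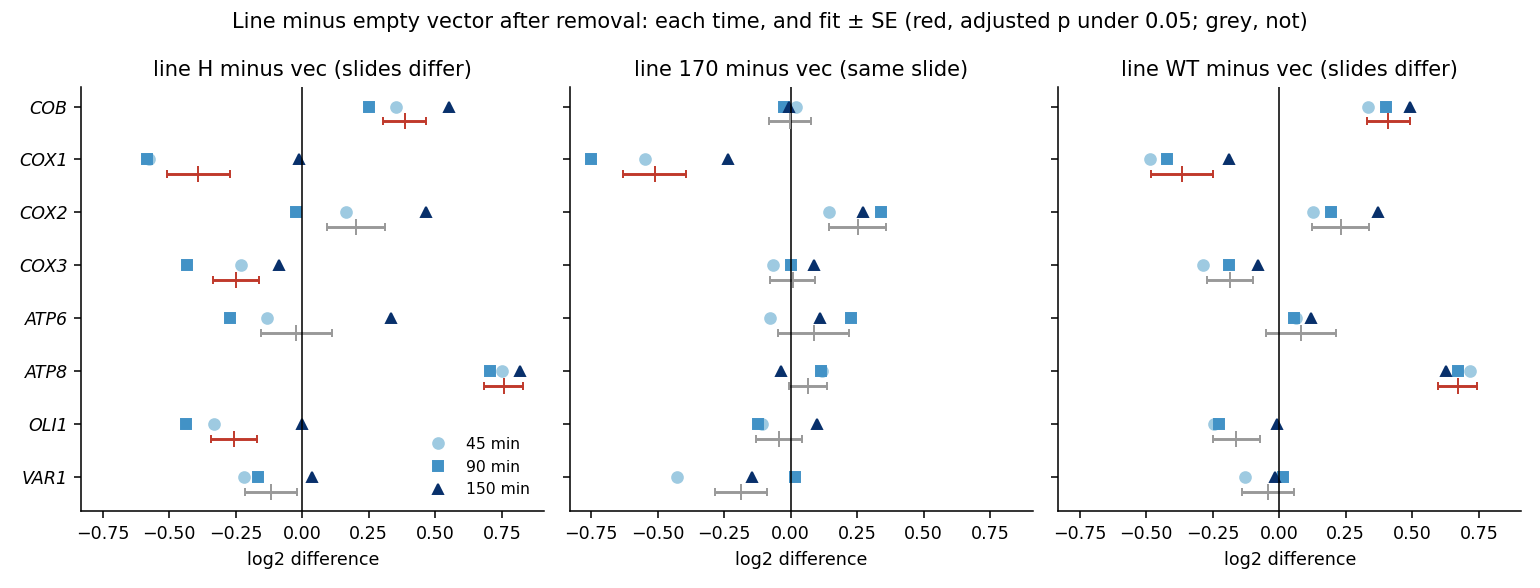
Difference from vec of lines H, 170 and WT (x axis, log2) for each gene (y axis) at 45, 90 and 150 min, with the limma estimate over the 3 times and its SE drawn below the points, red where the adjusted p was under 0.05 and grey otherwise. COB and ATP8 lie right of 0 in H and WT, which are on another slide than vec, and near 0 in 170, which shares its slide.

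The lines were also set against vec at 0 min, before the promoter was released. Each of these values is the difference of 2 single arrays, its SE and p take their spread from the later times, and of the 3 lines only 170 lies on the slide of vec. The p-values therefore say how large a difference is beside the scatter at other times, and whether lines differ at 0 min in repeated cultures was not tested. HOG1 itself stood at 1.65 in H, 1.51 in 170 and 1.89 in WT at that time, against -1.67 in vec. COX2 was higher than in vec in each line, by 0.70 ± 0.19 in H, 0.89 ± 0.19 in 170 and 0.84 ± 0.19 in WT (SE, limma adjusted p = 0.02, 0.0079 and 0.013). ATP8 was also higher in each, by 0.996 ± 0.13, 0.60 ± 0.13 and 1.06 ± 0.13 in the same order of lines (SE, limma adjusted p = 0.00086, 0.008 and 0.0012).

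In H 3 of the 8 were higher at 0 min (14.5% of genes) and 1 lower (17.8% of genes), the others being COB at 0.64 ± 0.14 and COX1 at -0.62 ± 0.20 (SE, limma adjusted p = 0.0088 and 0.046). In 170 3 were higher (12.2% of genes) and 1 lower (18.5% of genes), with ATP6 at 0.81 ± 0.23 and COX1 at -0.73 ± 0.20 (SE, limma adjusted p = 0.027 and 0.026). In WT 4 were higher (11.4% of genes), with COB at 0.81 ± 0.14 and ATP6 at 1.08 ± 0.23 (SE, limma adjusted p = 0.0046 and 0.011). COX1 in WT was at -0.40 ± 0.20 and did not pass. H against WT gave 0 calls in limma (1 at an unadjusted p under 0.05), where 0.0162% of genes passed. The counts for H, 170 and WT against vec became 1, 1 and 2 without the 90 min arrays.

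Among themselves the members moved together to different degrees over the 16 arrays, which share the time course and the slides. Pearson's r of a gene with the mean of the other members was 0.95 for VAR1, 0.92 for ATP6, 0.91 for COX2 and 0.85 for COB. It was 0.80 for COX3, 0.74 for OLI1, 0.66 for ATP8 and 0.34 for COX1. The closest pair was COB and ATP8 (r = 0.96), which are known to lie in different transcripts, and ATP6 with COX2 came next (r = 0.94). ATP8 and ATP6, which follow COX1 in the RefSeq gene order and are known to share a transcript with it, had an r of 0.66 with each other and of 0.06 and 0.29 with COX1. OLI1 and VAR1, also of a shared transcript, had an r of 0.80.

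The nuclear genes whose profiles were most like the members' mean were ROG1, IRA2, APC2, IRC6 and RAD4 (r of 0.96, 0.96, 0.95, 0.95 and 0.95 over 16 arrays). The least alike were SEC23, SVL3 and CSR1 (r = -0.96 each). Of 6143 genes outside the mitochondrial genome, 144 had an r above 0.9, so many genes shared this time course.

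The other 15 probes of the mitochondrial genome cover mostly intron-encoded maturases, endonucleases and unnamed frames, and 14 were tested. BI4, a COB intron frame, was well above background on 0 arrays. Of these, 6 were lower at the later times, 1 was higher and 7 did not pass, with a median of -0.28. Both shares are to be read against all genes, of which 44.2% were lower and 34.8% higher, and 6 of 14 is close to that share. Q0255 fell by 0.76 and AI1, an intron frame of COX1, fell by 0.49, but in vec their changes were -0.06 and 0.13. The other COX1 intron frames did not pass, with changes of -0.19 for AI2, 0.03 for AI3 and 0.11 for AI4. AI5_ALPHA and AI5_BETA were at 0.255 and -0.24. SCEI, the homing endonuclease of the 21S rRNA gene, was higher by 0.57 ± 0.15 (SE, limma adjusted p = 0.0043). The frames of the COB introns BI2 and BI3 fell by 0.32 and 0.38.

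The nuclear partners of COB and of the COX genes were also lower, where 44.2% of all genes were. All 9 nuclear subunits of complex III were lower at the later times, with a median of -1.95. By line their median change was -2.33 in H, -2.67 in 170 and -2.01 in WT, but -0.86 in vec. The log2 changes were -2.35 for QCR9, -2.23 for CYT1 (cytochrome c1), -2.20 for QCR10 and -2.02 for RIP1 (the iron-sulphur protein). All 9 measured nuclear subunits of complex IV were lower too, with a median of -1.64, led by COX5A at -2.15, COX7 at -2.08, COX13 at -1.87 and COX4 at -1.69. By line the median of these 9 was -1.97 in H, -2.31 in 170 and -1.64 in WT, but -0.89 in vec. Whether these changes differ in size from those of the mitochondrial members was not tested.

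The nuclear subunits of the ATP synthase were mixed: 8 of 14 were lower, 2 higher and 4 did not pass (44.2% of all genes lower, 34.8% higher), with a median of -0.32. The changes were -0.82 for ATP17, -0.66 for ATP7, -0.59 for ATP20 and -0.52 for ATP18. The ATP synthase members encoded in the mitochondrion had changes of -0.68 for ATP6, -0.61 for ATP8 and -0.32 for OLI1. By line the median over the 14 nuclear subunits was -0.53 in H, -0.68 in 170 and -0.27 in WT, against 0.25 in vec.

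The counts in this and the following lists stand beside 44.2% of all genes lower and 34.8% higher at the later times. The factors that make and handle mitochondrial RNA were mixed. Of 12 genes of transcription, RNA processing and decay, 4 were higher, 6 lower and 2 did not pass, with a median of -0.09. RPM2, the protein of mitochondrial RNase P, fell by 1.33, and DSS1, the exonuclease of the RNA degradosome, fell by 0.79. MSS116, a helicase of intron splicing, was higher by 0.74, and MRS1, a splicing factor of COB and COX1 introns, by 0.71.

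Translational activators bind single mitochondrial messages, and of 17 measured 6 were higher, 7 lower and 4 did not pass (median -0.08). PET122, an activator of COX3, was higher by 1.36, and MSS51, an activator of COX1, by 0.80. These values are over the 4 lines. The largest rise of any of the 17 was 1.46 in H, 2.52 in 170 and 1.15 in WT, but 0.42 in vec. SOV1, needed for VAR1, fell by 1.30, and AEP3, which stabilises the ATP6 and ATP8 message, fell by 1.11.

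Against vec after removal the same 17 activators also went both ways. In H 3 were higher, 2 lower and 12 did not pass (25.2% of all genes higher, 24.6% lower). In 170 2 were higher, 3 lower and 12 did not pass (32.5% of all genes called in either direction), and in WT 3 were higher, 2 lower and 12 did not pass (16.9% of all genes higher, 12.8% lower). PET122 was lower, at -1.30 in H, -0.41 in 170 and -1.03 in WT, and CBP6, which acts on the COB message, was lower at -0.51, -0.56 and -0.44 in the same order of lines. AEP3 was higher by 0.83 in H, 0.35 in 170 and 0.54 in WT, and ATP22, an activator of ATP6, was higher by 0.99, 0.82 and 0.57 in that order. The limma adjusted p of these values lay between 5.1e-05 and 0.028. At 0 min the 17 differences from vec already ranged from -2.41 to 0.853 in H, -2.578 to 0.841 in 170 and -1.781 to 0.895 in WT. A difference after removal therefore need not have arisen after it.

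Of 9 genes that maintain mitochondrial DNA, 5 were higher and 4 lower at the later times, with a median of 0.34. RIM1, the single-strand binding protein, was higher by 1.29, ABF2, the packaging protein of the nucleoid, by 1.05, PIF1 by 0.90 and MGM101 by 0.66. Among 17 insertion and assembly factors 5 were higher, 5 lower and 7 did not pass. COX15, of haem a synthesis, fell by 2.004, CBP4 fell by 1.096, and OXA1, the insertase for mitochondrial products, was higher by 1.26 and ATP12 by 0.76. Of 6 targets of the retrograde response to respiratory defects, CIT2 fell by 1.67, CIT1 fell by 0.82, ACO1 was higher by 0.91, and 3 did not pass.

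**Figure D4:**
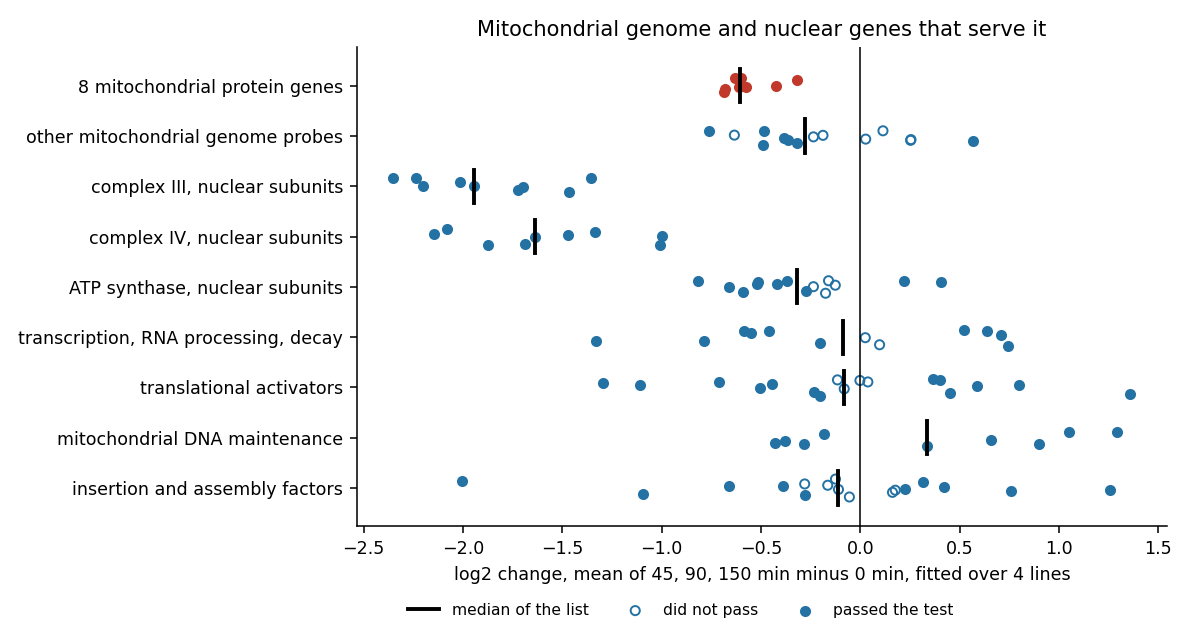
Change of each gene (x axis, log2, mean of 45, 90 and 150 min minus 0 min, fitted over 4 lines) for the 8 mitochondrial protein genes in red and other lists in blue (y axis), with filled points for genes that passed and a black bar at the median of each list. The 8 genes lie between -0.69 and -0.32, right of all nuclear subunits of complexes III and IV.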

How the data were processed

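Single-colour (Cy3) arrays of total RNA were deposited as scanner tables; per the file headers they were made with Agilent Feature Extraction 10.7.1.1, and the intensity used is the deposited processed signal, already background-subtracted. The authors also deposited a table of log2 values, used only as an alternative; within a slide its differences had Pearson's r of 0.9999 and 0.9984 with those computed here. From its values, each probe has a median of 0 within each slide, and the direction is that of the signal; array medians lay between -0.04 and 0.06, and the exact scaling is not given in the sources used here. Spot signals were put on the log2 scale and scaled by the 75th percentile of the array. The spots of a probe were then averaged (spots the scanner marked as outliers left out where the other was not). Genes above background on at least 3 of 16 arrays were kept, and the brightest probe stood for each of 28 genes with several. R 4.3.3 and limma 3.58.1 (lmFit, eBayes, two-sided, Benjamini-Hochberg over 6165 genes) gave the tests, with 0.05 as the threshold. Time effects were fitted with line as a term and line effects with time as a term. The number of arrays limits the precision.

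The members and gene lists were chosen with earlier results of these data known. Named genes were the members, up to 4 genes of each list with the largest change that passed, HOG1, and the 5 most and 3 least like the members' mean. ATP22, AEP3, PET122 and CBP6 are within that rule for H, 170 and WT against vec. Other Q0 probes named singly were picked after their values were seen. On simulated data with 200 of 6165 genes changed, 59.7% of changes of 0.5 (log2) were recovered for later times minus 0 min, 28.4% for H minus vec after removal and 0% for H minus WT at 0 min. In the data 44.2% of genes were lower and 34.8% higher at the later times. The Benjamini-Hochberg adjustment depends on how many genes change, so these recovery rates need not hold for the tests above.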

Additional observations from a re-analysis of the deposited data

Results flagged for a closer look

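The change of ATP8 after methionine removal differed between 170 and vec by -0.531 (log2, limma adjusted p = 0.033), a difference between lines tested as an interaction of line and later time. ATP8 was lower by 0.85 in 170 and by 0.32 in vec, with 1 array at 0 min in each line, and both lines lie on the same slide. ATP8 in 170 stood above vec by 0.60 at 0 min and by 0.065 after removal. By the same criterion 7.58% of genes were lower. The call was lost without the 90 min arrays and without the 150 min arrays.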

How the results depend on the processing

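Over 1456 recomputed member results, 98 changed side of the threshold and 2 reversed. Both reversals were OLI1 in H minus vec under quantile normalization, to 0.332 after removal and 0.463 at 0 min. For 45 min minus 0 min, 5 of 8 members passed with median scaling. On the slide of 170 and vec alone, 0 passed at 45 min, 1 at 90 min, 4 at 150 min and 4 for the later times together. For 170 minus vec after removal, 0 passed on that slide alone and 0 in the deposited values, which were also fitted on that slide alone. For 170 minus vec in the change from 0 min, 2 passed with normexp and 3 with quantile normalization; for WT minus vec in the change, 1 passed with normexp, 4 with quantile normalization and 1 with a variance trend. Leaving out 1 line at a time gave 5 to 8 at 45 min. Leaving out 1 time at a time gave 1 to 3 for H minus vec, 0 to 1 for 170 minus vec, 1 to 2 for WT minus vec, 0 to 2 for 170 minus WT and 0 to 2 for H minus 170 after removal. At 0 min it gave 1 to 4 for H minus vec, 1 to 4 for 170 minus vec and 2 to 5 for WT minus vec, and 0 to 1 for 170 minus vec in the change. The cause of these shifts was not tested. With normexp, COX3 also passed in 170 minus WT (1 higher, 2 lower) and in H minus 170 (2 higher, 1 lower). No paired analysis was possible because the labels carry no replicate numbers to pair by. The fits themselves already compare times within a line and lines within a time. Limits are the lack of repeated cultures, the slides, and levels that are relative to the other probes of an array.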

Other observations

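AI4, an intron frame of COX1, was near the low end of the array and above background on 15 of 16 arrays. After removal it was lower in 170 than in vec by -0.76 ± 0.11 (SE, 3 times, limma adjusted p = 0.0011), within 1 slide. It was higher than in vec by 0.57 ± 0.11 in H and by 0.82 ± 0.11 in WT, across slides (limma adjusted p = 0.0027 and 0.0014). It was picked after its values were seen.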
